A study of Mus musculus with 5 samples.

Results

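The promoter regions of 5 germline genes, Dazl, Sycp3, Ddx4, Mael and Sycp1, were examined for DNA methylation in mouse embryonic stem (ES) cells. The members are fixed stretches of several kb of the mm9 genome around each gene, set by coordinates. The CpGs with reads in them spanned chr17:50432041-50433562 for Dazl, chr10:87921402-87922732 for Sycp3, chr13:113442370-113442637 for Ddx4, chr1:168168549-168169076 for Mael and chr3:102739025-102741168 for Sycp1. Together the 5 regions held 184 CpGs with reads in at least 1 library, of 1097424 such CpGs on the autosomes and the X chromosome. By gene these were 63 CpGs at Dazl, 21 at Sycp3, 34 at Ddx4, 26 at Mael and 40 at Sycp1.

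The assay was RRBS (reduced representation bisulfite sequencing), which sequences short CpG-rich fragments cut by MspI at CCGG after bisulfite conversion. The methylation level of a CpG is the percentage of its reads in which C remains. The mutant libraries came from ES cells labelled Fbxl10 T/T, Ring1B -/-, Eed -/- and Ezh2 -/-, and they are set against a WT library. The Fbxl10 T/T and WT cells are labelled C57BL/6J and were grown on feeder cells with serum and LIF to passage 17, whereas the Ring1B -/-, Eed -/- and Ezh2 -/- cells carry no strain or passage label and a shorter description of culture in serum and LIF, so genotype and cell history cannot be told apart in those mutants. What the T allele of Fbxl10 changes, and how many ES cell lines or clones stand behind a genotype, is not given in the sources used here. FBXL10 recognises unmethylated CpGs through its CXXC domain, and by its title the series concerns whether the protein keeps genes bound by Polycomb free of methylation. Ring1B is a catalytic subunit of Polycomb repressive complex 1, EED is a scaffold of Polycomb repressive complex 2, and EZH2 is the histone methyltransferase of the second complex.

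Germline genes are needed for germ cell development and meiosis and are silent in most other cells. Many have promoters rich in CpG that gain DNA methylation when the early embryo implants, which makes them known examples of genes held silent by promoter methylation in somatic tissue. A variant of Polycomb repressive complex 1 that contains E2F6, MGA and L3MBTL2 also silences genes of this kind in ES cells, and its DNA-binding subunits recognise E2F sites and E-boxes. Dazl encodes an RNA-binding protein of germ cells and Ddx4, also called Vasa, an RNA helicase of germ cells. Sycp3 and Sycp1 encode the lateral element and the transverse filament of the synaptonemal complex, which joins paired chromosomes in meiosis, and Mael encodes a protein of the piRNA pathway that holds transposons silent.

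Each genotype was represented by a single library. Differences between genotypes could therefore not be checked against replicates, and the Fisher's exact tests set the reads of one library against those of another, not one genotype against another. The Fbxl10 T/T library held a median of 23 reads per listed CpG and WT 33, against 3 in each of the Ring1B -/-, Eed -/- and Ezh2 -/- libraries. Within the 5 regions, Fbxl10 T/T had reads at 168 CpGs, Ring1B -/- at 94, Eed -/- at 109, Ezh2 -/- at 91 and WT at 172. A read that spans several CpGs enters the totals once per CpG. The 95% Wilson intervals cover counting error only, and because CpGs on the same read are treated as separate counts they are narrower than they should be. CpGs inside CCGG, at the cut sites of MspI, can be filled in during library preparation and are therefore given apart from the others.

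RefSeq promoter sequences, taken from GRCm38.p6 as 250 bases before to 50 after each start, were placed on mm9 by matching them to the 5-base contexts listed in the tables. The start of Dazl lay at chr17 position 50432945 (minus strand), that of Sycp3 at chr10 position 87922332 (plus strand), that of Ddx4 at chr13 position 113442518 (minus strand), that of Mael at chr1 position 168168875 (minus strand) and that of Sycp1 at chr3 position 102740023 (minus strand). Ddx4, Mael and Sycp1 were placed by 162, 118 and 96 covered bases without a mismatch, whereas Dazl rested on 30 and Sycp3 on 10 covered bases. Exons, introns and UTRs were not assigned, since no mm9 annotation was used here.

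An E-box (CACGTG) and the core of an E2F site (TCCCGC) were searched in each 300-base promoter on both strands. Each was found in 4 of the 5 promoters, those of Sycp3, Ddx4, Mael and Sycp1, while neither stood in the Dazl window. Of all 32851 promoter sequences, 6562 held TCCCGC, 7.15% held CACGTG and 1.99% held both. Among the 9744 promoters that could be placed, and so lie in regions RRBS covers, 42.8% held TCCCGC, 10.3% held CACGTG and 4.47% held both. A match in letters is a description and does not show that a factor binds.

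The promoters of Ddx4 (chr13:113442489-113442768), Mael (chr1:168168846-168169125) and Sycp1 (chr3:102739994-102740273), all on the minus strand, are shown because reads cover CpGs inside their motifs. They run 5′ to 3′ from 250 bases before the start to 30 bases into the transcribed side, and capitals mark CACGTG and TCCCGC or its reverse complement GCGGGA.
Ddx4: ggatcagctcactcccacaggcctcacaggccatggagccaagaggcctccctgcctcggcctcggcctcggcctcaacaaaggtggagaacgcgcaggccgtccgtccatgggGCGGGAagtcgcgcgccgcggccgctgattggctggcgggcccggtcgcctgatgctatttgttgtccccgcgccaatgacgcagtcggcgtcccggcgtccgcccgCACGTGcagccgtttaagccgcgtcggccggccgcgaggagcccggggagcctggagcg
Mael: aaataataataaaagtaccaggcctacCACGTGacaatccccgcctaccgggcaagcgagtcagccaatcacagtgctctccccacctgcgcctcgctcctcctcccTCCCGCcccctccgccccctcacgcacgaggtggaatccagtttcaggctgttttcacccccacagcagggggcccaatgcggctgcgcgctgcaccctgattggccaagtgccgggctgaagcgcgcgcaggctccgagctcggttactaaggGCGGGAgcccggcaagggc
Sycp1: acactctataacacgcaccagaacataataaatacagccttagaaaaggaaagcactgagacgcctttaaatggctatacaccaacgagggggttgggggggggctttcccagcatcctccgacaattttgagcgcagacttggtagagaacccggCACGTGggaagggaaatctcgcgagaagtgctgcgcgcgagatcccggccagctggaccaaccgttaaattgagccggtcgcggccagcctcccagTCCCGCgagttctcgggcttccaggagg
In Ddx4 the E-box began 29 bases before the start, in Mael 223 bases before and in Sycp1 94 bases before. Sycp3 held E-boxes that began 64 and 43 bases before its start.

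Short stretches that hold several measured CpGs close together are shown next, because the per-CpG values below refer to them. They are given on the plus strand, at chr17:50432264-50432293 for Dazl, chr10:87922471-87922500 for Sycp3, chr13:113442536-113442565 for Ddx4 and chr3:102739736-102739765 for Sycp1, with the measured CpGs in capitals.
Dazl stretch: gaggCGccCGCGctgCGgCGctcCGaccCG
Sycp3 stretch: ggagtgaaagcCGggtCGgcttggccttCG
Ddx4 stretch: CGgctgcaCGtgCGggCGgaCGcCGggaCG
Sycp1 stretch: agcCGgccaCGCGaccaCGggcccagccCG
The Dazl stretch lay 653 to 677 bases after the start of its gene, the Sycp3 stretch 150 to 167 bases after, the Sycp1 stretch 259 to 284 bases after, and the Ddx4 stretch 18 to 46 bases before the start.

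All 5 germline genes carried more methylation near or downstream of their start in Fbxl10 T/T than in WT. A 1-kb window was tested with at least 5 CpGs outside CCGG and 30 reads in each library, and called where the adjusted p was under 0.05 and the levels differed by 20 percentage points or more (two-sided Fisher's exact test on summed reads, Benjamini-Hochberg adjustment over all windows). Of 6 windows of the regions that could be tested, 5 rose in Fbxl10 T/T, 1 at each gene, and none fell. Over all 20312 windows 25.6% rose and 2.68% fell, but among the 2342 windows that stood, like these 5, between 10 and 50% in WT, 70.7% rose and 2.05% fell. Most windows that started at such a level rose in Fbxl10 T/T, whether or not they belong to these genes.

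**Figure D1:**
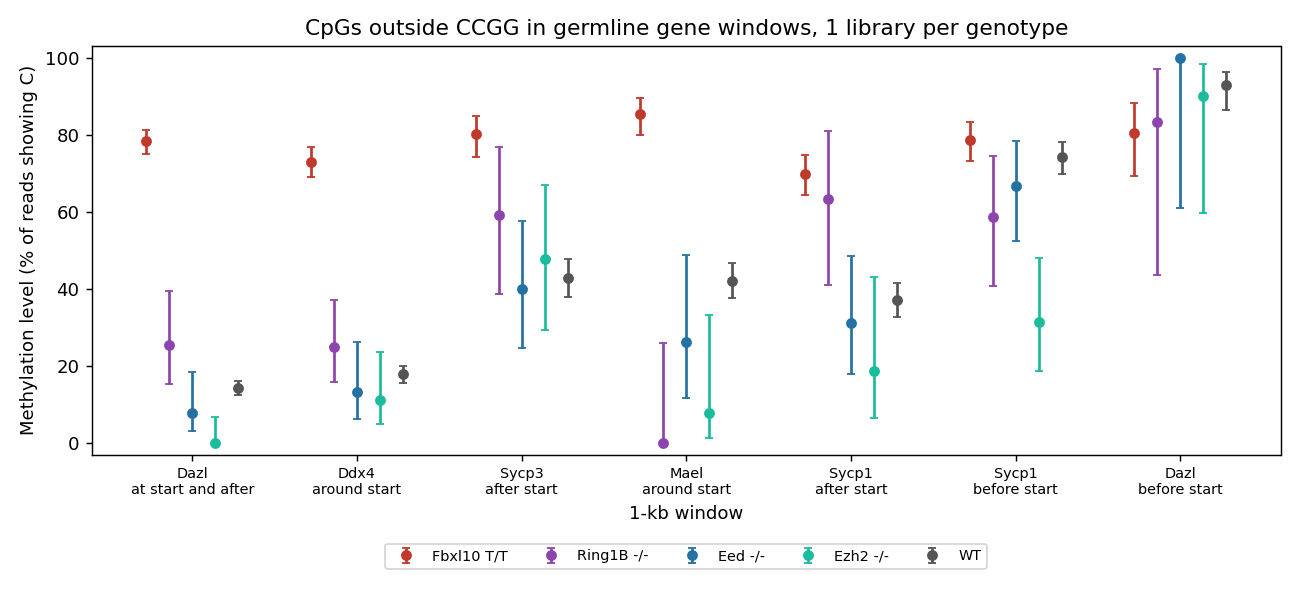
Methylation level (% of reads showing C, y axis) of CpGs outside CCGG in the 1-kb windows of the 5 regions, with 1 point per library and 95% Wilson intervals for counting error; genotypes run from Fbxl10 T/T at the left to WT at the right of each window. Fbxl10 T/T lies above WT, with no overlap of intervals, in the 5 windows at the left (69.8 to 85.4% against 14.2 to 42.9%), and the intervals of the mutants with few reads are wide.

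At Dazl the window that holds the start and the bases after it read 78.3% in Fbxl10 T/T (95% interval 75.0 to 81.2%, 41 CpGs, 667 reads), 25.5% in Ring1B -/- (15.3 to 39.5%, 47 reads), 7.84% in Eed -/- (3.09 to 18.5%, 51 reads), 0 of 53 reads in Ezh2 -/- and 14.2% in WT (12.5 to 16.1%, 38 CpGs, 1446 reads). Only Fbxl10 T/T stood far above WT. The difference to WT was +64.1 points (adjusted p = 3.50e-183, Fisher's exact test), a size reached by 3.37% of the windows at 10 to 50% in WT.

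At Ddx4 the window around the start read 73.0% in Fbxl10 T/T (68.9 to 76.8%, 22 CpGs, 486 reads), 15 of 60 reads in Ring1B -/- (15.8 to 37.2%), 13.3% in Eed -/- (6.26 to 26.2%, 45 reads), 11.1% in Ezh2 -/- (4.84 to 23.5%, 45 reads) and 17.8% in WT (15.6 to 20.1%, 26 CpGs, 1076 reads). As at Dazl, the Fbxl10 T/T interval overlapped with no other library. Fbxl10 T/T exceeded WT by 55.3 points (adjusted p = 2.78e-98, Fisher's exact test), which 13.4% of the windows at 10 to 50% in WT equalled or passed.

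At Sycp3 the window after the start read 80.1% in Fbxl10 T/T (74.2 to 84.9%, 12 CpGs, 211 reads), 59.1% in Ring1B -/- (38.7 to 76.7%, 22 reads), 12 of 30 reads in Eed -/- (24.6 to 57.7%), 47.8% in Ezh2 -/- (29.2 to 67.0%, 23 reads) and 42.9% in WT (38.0 to 47.8%, 12 CpGs, 385 reads). WT was thus already intermediate in this window, unlike in the windows of Dazl and Ddx4. The contrast depends on where the reads lie. Within 250 bases after the start, WT read 63.3% at Dazl, 31.2% at Ddx4 and 42.8% at Sycp3 outside CCGG. The difference of Fbxl10 T/T to WT was +37.2 points (adjusted p = 1.72e-18, Fisher's exact test), which 46.9% of the windows at 10 to 50% in WT equalled or passed. The Ring1B -/- value rests on 22 reads, and its interval overlaps with both Fbxl10 T/T and WT.

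At Mael the window around the start read 85.4% in Fbxl10 T/T (79.9 to 89.6%, 13 CpGs, 205 reads), the highest of the 5 genes, and 42.0% in WT (37.5 to 46.6%, 16 CpGs, 448 reads). The rise was +43.4 points (adjusted p = 4.13e-26, Fisher's exact test), a size reached by 34.4% of the windows at 10 to 50% in WT. The Polycomb mutants had 0 of 11 reads in Ring1B -/-, which by the rule of 3 counts allows a level of up to 27.3%, 26.3% of 19 reads in Eed -/- and 7.69% of 13 reads in Ezh2 -/-, too few to test.

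Sycp1 gave different results on the 2 sides of its start. The window after it read 69.8% in Fbxl10 T/T (64.4 to 74.7%, 18 CpGs, 301 reads), 63.2% of 19 reads in Ring1B -/-, 31.2% of 32 reads in Eed -/-, 18.8% of 16 reads in Ezh2 -/- and 37.0% in WT (32.7 to 41.5%, 14 CpGs, 460 reads), and Fbxl10 T/T exceeded WT by 32.8 points (adjusted p = 2.36e-18, Fisher's exact test), a size that 54.1% of the windows at 10 to 50% in WT reached or passed. The window that holds the bases before the start read 78.7% in Fbxl10 T/T (73.1 to 83.4%, 11 CpGs, 244 reads), 58.6% of 29 reads in Ring1B -/-, 66.7% of 48 reads in Eed -/-, 31.4% of 35 reads in Ezh2 -/- and 74.1% in WT (69.8 to 78.1%, 11 CpGs, 425 reads). There the difference of Fbxl10 T/T to WT was +4.57 points and not called (adjusted p = 0.319, Fisher's exact test), so the promoter proper was methylated in both libraries.

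Within Dazl and Sycp1 the larger gain lay on the side of the start where WT was lower. At Dazl, CpGs outside CCGG from 250 bases to 1 kb after the start read 77.7% in Fbxl10 T/T (33 CpGs, 618 reads) and 10.2% in WT (30 CpGs, 1337 reads). Nearer the start, within 250 bases after it, the levels were 85.7% in Fbxl10 T/T (8 CpGs, 49 reads) and 63.3% in WT (8 CpGs, 109 reads). Farther than 250 bases before the start, the levels were 80.3% in Fbxl10 T/T (4 CpGs, 66 reads) and 92.9% in WT (4 CpGs, 112 reads), below the minimum of 5 CpGs for a test. The Dazl profile in WT thus ran from high before the start to low after it, while in Fbxl10 T/T it stayed high on both sides.

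At Ddx4 the 250 bases before the start read 70.2% in Fbxl10 T/T (342 reads) and 13.2% in WT (804 reads), and the 250 bases after it 79.9% in Fbxl10 T/T (144 reads) and 31.2% in WT (272 reads). At Mael the bases just before the start read 90.5% in Fbxl10 T/T (105 reads) and 28.9% in WT (194 reads), and those just after it 80.0% in Fbxl10 T/T (100 reads) and 52.0% in WT (254 reads). At Ddx4 WT was lower before the start than after it. At Mael this order held over summed reads, while the WT mean over CpGs was 41.3% just before the start and 30.2% just after it. That mean rests in part on CpGs with 1 read, at 100.0% before the start and mostly at 0% after it. Apart from CpGs with 1 read, WT levels at Mael were 21.1 to 35.4% just before the start and 22.2 to 74.0% just after it. At Sycp1 the order was the other way, with 78.5% in Fbxl10 T/T and 74.2% in WT just before the start, and 70.6% in Fbxl10 T/T and 34.5% in WT at 250 bases to 1 kb after it. These distance classes were set after the data were seen and carry no test.

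**Figure D2:**
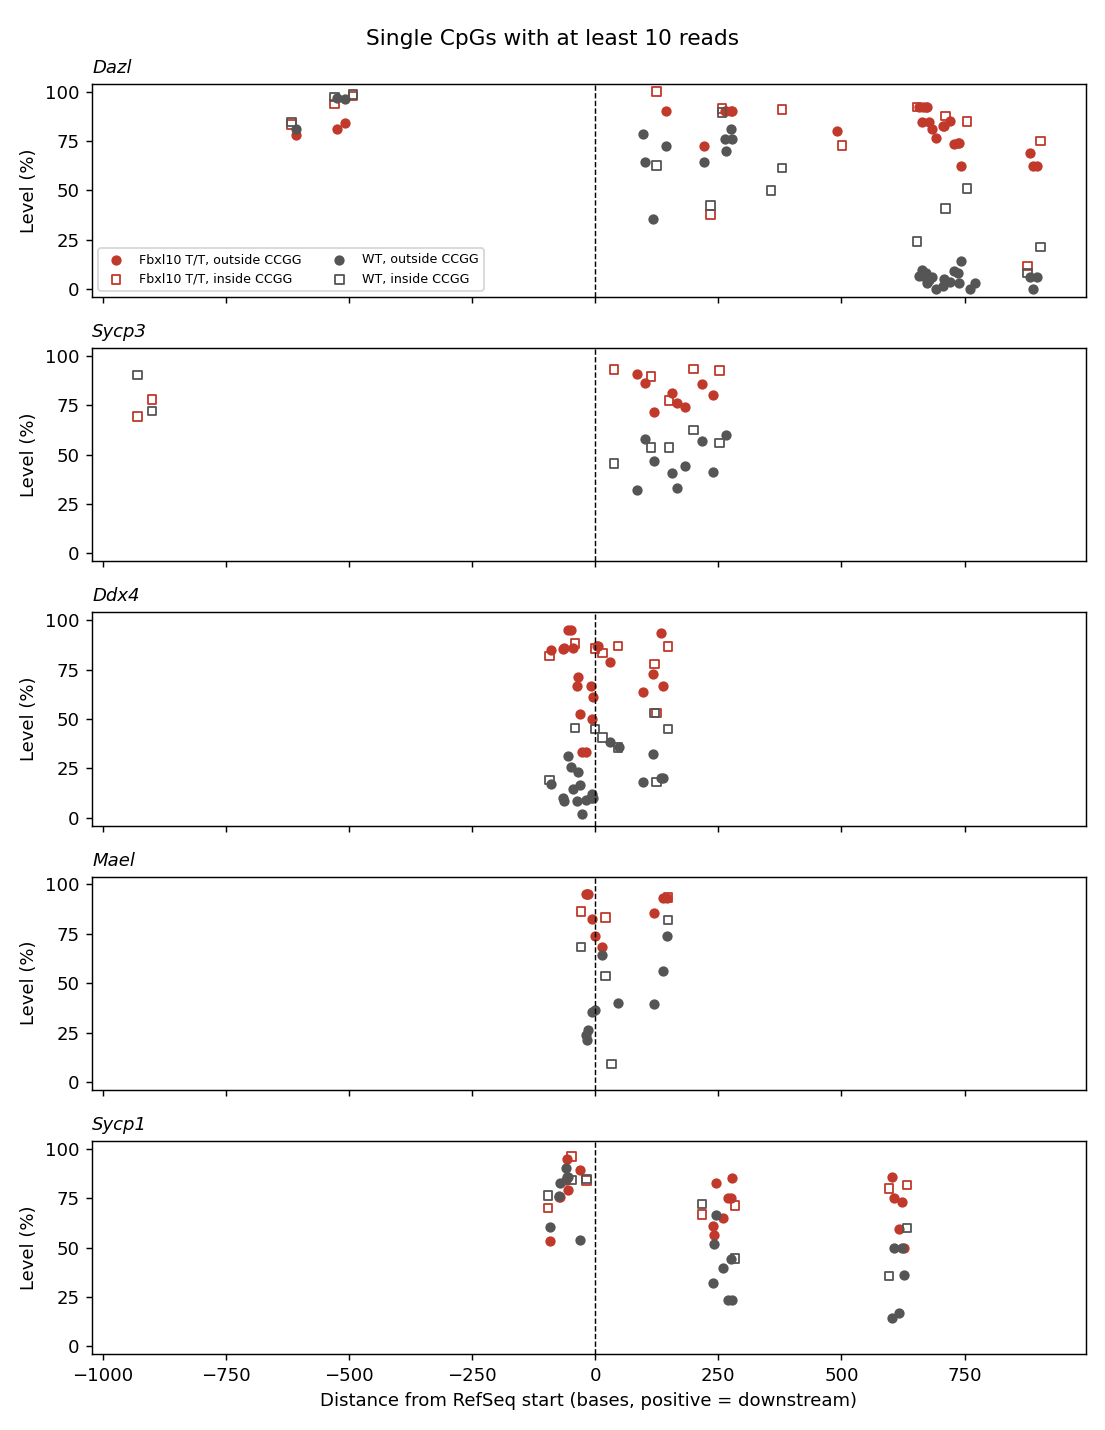
Methylation level (%, y axis) of single CpGs with at least 10 reads against the distance from the RefSeq start in bases (x axis, dashed line at the start), for Fbxl10 T/T (red) and WT (grey); circles are CpGs outside and squares CpGs inside CCGG. In the Dazl cluster from 658 to 898 bases after the start, the circles lie at 62.5 to 92.3% in Fbxl10 T/T and at 0 to 14.1% in WT, and at Sycp1 the libraries overlap before the start, while after it Fbxl10 T/T is above WT at each of the circles drawn for both.

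Single CpGs showed the same direction. Of 82 CpGs outside CCGG with at least 10 reads in both libraries, 74 were higher in Fbxl10 T/T, 47 rose past 25 points with an adjusted p under 0.05 and none fell (Fisher's exact test), with a median difference of +42.7 points. Over all 368305 such CpGs of the genome, 16.5% rose and 4.34% fell, shares that are not matched on the WT level. Neighbouring CpGs often lie on the same reads, so the counts by gene are not independent. At Ddx4 all 19 tested CpGs were higher in Fbxl10 T/T and 15 of them rose. At Dazl 24 of 27 were higher and 18 rose, at Sycp1 14 of 19 were higher and 5 rose, at Mael 9 of 9 were higher and 5 rose, and at Sycp3 8 of 8 were higher and 4 rose.

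In the Dazl stretch shown above, the CpG 673 bases after the start read 92.3% of 13 reads in Fbxl10 T/T and 3.23% of 62 reads in WT, a difference of +89.1 points (adjusted p = 1.25e-09, Fisher's exact test), and this was the largest single-CpG rise of the 5 regions. Its 6 CpGs outside CCGG read 84.6 to 92.3% in Fbxl10 T/T and 3.23 to 9.84% in WT. Their read counts were nearly equal within each library, so they are taken to share reads. The CpG of the same stretch that lies inside CCGG read 92.3% in Fbxl10 T/T and 24.2% in WT. In the Sycp1 stretch the 4 CpGs outside CCGG read 65.0 to 85.0% of 20 reads in Fbxl10 T/T and 23.3 to 44.2% of 43 reads in WT. In the Sycp3 stretch the CpGs outside CCGG read 81.0 and 76.2% in Fbxl10 T/T and 40.6 and 33.3% in WT.

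The largest rises elsewhere were of a similar kind. At Ddx4 the CpG 64 bases before the start read 85.7% of 21 reads in Fbxl10 T/T and 8.57% of 35 reads in WT (adjusted p = 1.19e-07, Fisher's exact test). At Mael the CpG 17 bases before the start read 95.2% of 21 reads in Fbxl10 T/T and 21.1% of 38 reads in WT (adjusted p = 4.36e-07, Fisher's exact test), at Sycp1 the CpG 602 bases after the start read 85.7% of 14 reads in Fbxl10 T/T and 14.3% of 28 reads in WT (adjusted p = 1.05e-04, Fisher's exact test), and at Sycp3 the CpG 85 bases after the start read 90.9% of 22 reads in Fbxl10 T/T and 32.3% of 31 reads in WT (adjusted p = 1.68e-04, Fisher's exact test). The second largest rises were +85.9 points at Dazl (658 bases after the start), +75.0 points at Ddx4 (66 bases before), +71.6 points at Mael (19 bases before), +61.7 points at Sycp1 (278 bases after) and +47.6 points at Sycp3 (38 bases after, inside CCGG), all called. The CpGs with the largest falls were already methylated in WT and none passed the test. They were the Sycp3 CpG 930 bases before the start, with 69.4% of 36 reads in Fbxl10 T/T and 90.2% of 61 reads in WT (adjusted p = 0.0567, Fisher's exact test), and the Dazl CpG 525 bases before the start, with 81.2% of 16 reads in Fbxl10 T/T and 96.7% of 30 reads in WT (adjusted p = 0.346, Fisher's exact test). The other differences below 0 named by the same rule were -12.3 points at Dazl (509 bases before the start) and -7.19 and -6.99 points at Sycp1 (91 and 72 bases before). In the Polycomb mutants few single CpGs had 10 reads, and all had an adjusted p of 0.361 or more (Fisher's exact test). The Ddx4 CpG 66 bases before the start read 36.4% of 11 reads in Ring1B -/- and 10.2% of 88 reads in WT. In Eed -/- the differences to WT were -8.53 points at Dazl (492 bases before the start, inside CCGG) and -17.2 points at Sycp1 (31 bases before), and in Ezh2 -/- they ran from -9.09 to +1.47 points at Dazl.

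CpGs of a region lay closer to each other in Fbxl10 T/T, where levels were higher, at 4 of the 5 genes. At Dazl the levels of CpGs outside CCGG with at least 10 reads averaged 81.0% with an SD over CpGs of 9.47 points in Fbxl10 T/T (28 CpGs) and 31.2% with an SD of 35.4 points in WT (32 CpGs). At Sycp1 the SD was 12.7 points in Fbxl10 T/T and 24.4 points in WT, at Mael 10.2 points in Fbxl10 T/T and 17.7 points in WT, and at Sycp3 6.70 points in Fbxl10 T/T and 10.4 points in WT. Ddx4 was the exception, with 18.5 points in Fbxl10 T/T (21 CpGs) and 10.2 points in WT (20 CpGs). These spreads are among CpGs that share reads, and they were neither tested nor compared with other regions. They pool both sides of the start, and at Dazl the WT CpGs ran from 0 to 96.7%.

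At Ddx4 the lowest levels in Fbxl10 T/T lay at and beside the E-box. The CpG inside the E-box, 26 bases before the start, read 33.3% of 27 reads in Fbxl10 T/T and 2.00% of 100 reads in WT, while the other CpGs of the promoter outside CCGG read 74.1% in Fbxl10 T/T and 18.1% in WT. Its neighbour 18 bases before the start, outside the motif, also read 33.3% of 27 reads in Fbxl10 T/T and 9 of 100 reads in WT, and from there the levels in Fbxl10 T/T were 52.4% at 30 bases, 71.4% at 34 bases, 66.7% at 38 bases and 85.7% at 46 bases before the start. The low value is thus shared by the CpG next to the motif. In the Ring1B -/-, Eed -/- and Ezh2 -/- libraries the E-box CpG had 4 reads each, none of them methylated.

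The E-box CpG of Sycp1, 91 bases before the start, read 53.3% of 30 reads in Fbxl10 T/T and 60.5% of 38 reads in WT, against 81.9% in Fbxl10 T/T and 75.5% in WT over the other CpGs of that promoter. In Ezh2 -/- it had 0 of 8 reads methylated. At Mael the CpG in the E2F core 13 bases after the start read 68.4% of 19 reads in Fbxl10 T/T and 64.3% of 42 reads in WT, against 87.7% in Fbxl10 T/T and 29.9% in WT over the others. In these 3 promoters the motif CpG was therefore below the other CpGs in Fbxl10 T/T, and in WT it was above them at Mael. This reading was added after the data were seen, concerns 1 CpG per gene and was not tested.

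Inside CCGG the same 5 windows rose in Fbxl10 T/T, on a higher WT level. Of 8 windows tested, with at least 2 such CpGs and 30 reads in each library, 5 rose and none fell, where 10.7% of 76144 windows of the genome rose and 21.0% fell. A share among windows of a similar WT level was not computed inside CCGG. At Dazl the level inside CCGG was 74.2% in Fbxl10 T/T (287 reads) and 45.2% in WT (553 reads), a rise of +29.0 points (adjusted p = 1.20e-14, Fisher's exact test). The other rises were +43.7 points at Ddx4, with 82.1% in Fbxl10 T/T and 38.4% in WT, +34.7 points at Sycp3, with 89.4% in Fbxl10 T/T and 54.7% in WT, +23.4 points at Mael, with 87.5% in Fbxl10 T/T and 64.1% in WT, and +23.1 points at Sycp1, with 74.7% in Fbxl10 T/T and 51.6% in WT. Windows that were high in WT were not called, namely those before the start of Dazl (92.9% in Fbxl10 T/T, 94.7% in WT), Sycp1 (85.7% in Fbxl10 T/T, 82.1% in WT) and Sycp3 (72.2% in Fbxl10 T/T, 84.9% in WT).

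**Figure D3:**
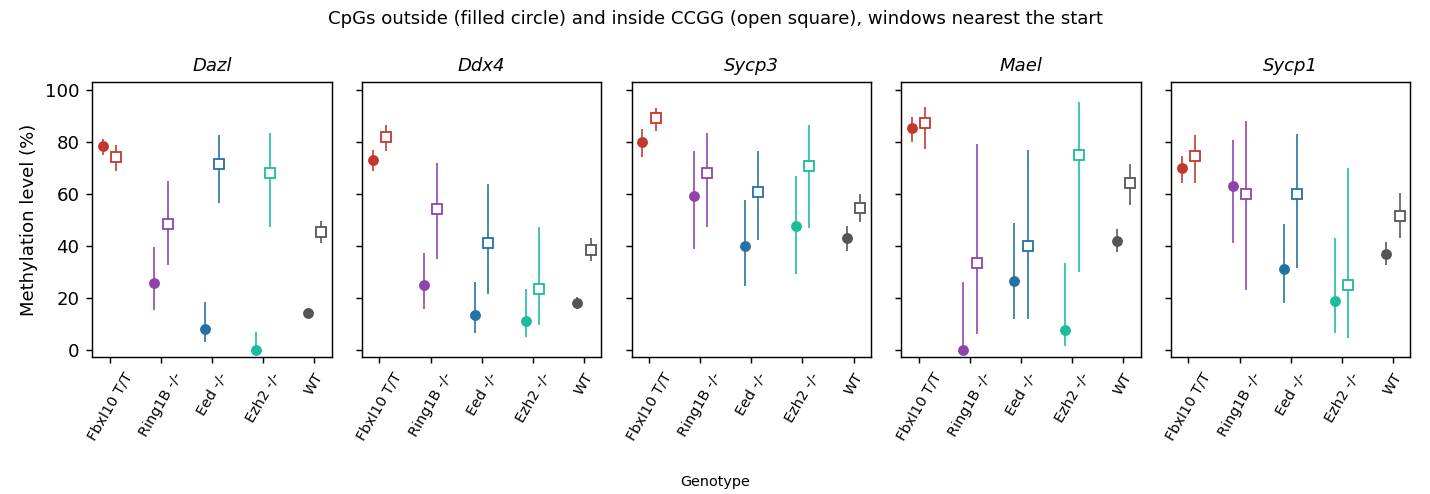
Methylation level (%, y axis) of CpGs outside CCGG (filled circles) and inside CCGG (open squares) in the 1-kb window of each gene that rose in Fbxl10 T/T, by genotype (x axis, WT at the right), with 95% Wilson intervals. In WT the CpGs inside CCGG lie above those outside it at all 5 genes (45.2% against 14.2% at Dazl), while in Fbxl10 T/T the intervals of the classes overlap at all 5 genes.

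Of 37 single CpGs inside CCGG with at least 10 reads, 29 were higher in Fbxl10 T/T, 14 rose and none fell (Fisher's exact test), where 10.1% of all such CpGs rose and 9.82% fell. These shares too are not matched on the WT level. At Ddx4 8 of 8 were higher and 5 rose. At Mael none of 3 passed the test, with differences of +11.3 to +29.7 points.

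In Ring1B -/- the germline windows were not called in either direction. Of 2 windows that could be tested, Dazl differed from WT by +11.4 points (adjusted p = 0.161, Fisher's exact test) and Ddx4 by +7.25 points (adjusted p = 0.456, Fisher's exact test), a difference that vanished as a mean over CpGs (-0.0212 points). Of all 8723 windows tested in this mutant, 1.33% rose and 0.562% fell. Both germline windows stood at 10 to 50% in WT. In that class 53 of 407 windows rose and 18 fell, with a median difference of -4.44 points. Inside CCGG the Dazl window read 48.5% of 33 reads in Ring1B -/- and 45.2% in WT and was not called (adjusted p = 0.802, Fisher's exact test), where 19.6% of all windows inside CCGG rose and 0.592% fell in this library. With the median difference of all such windows subtracted, 2.24% rose and the Dazl difference changed sign, to -8.74 points.

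In Eed -/- none of 5 tested windows outside CCGG was called. The differences to WT ran from -7.45 points at Sycp1 before the start to -2.86 points at Sycp3, all below WT and with an adjusted p of 0.687 or more (Fisher's exact test), where 0.372% of 9146 windows rose and 0.678% fell. Windows of a similar WT level were also lower in Eed -/-. Among all windows at 10 to 50% in WT the median difference was -8.56 points, with 1.36% called higher and 7.92% lower. At 50 to 100% in WT, the class of Sycp1 before the start, the median was -12.0 points. The direction at Dazl and Sycp3 turned with the setting. With CpGs inside and outside CCGG together the differences were +13.8 points at Dazl (adjusted p = 0.0219, Fisher's exact test), below the size threshold, and +1.68 points at Sycp3, and as a mean over CpGs Sycp3 differed by +1.82 points. Inside CCGG the Dazl window read 71.4% of 42 reads in Eed -/- and 45.2% of 553 reads in WT and was called, with +26.2 points (adjusted p = 0.010, Fisher's exact test), where 14.4% of all windows inside CCGG rose and 0.564% fell in this library. The value was +15.9 points, below the call, once the median difference of all such windows was subtracted, which left 2.13% of all windows higher, and +17.0 points (adjusted p = 0.160, Fisher's exact test) over CpGs with at least 5 reads.

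In Ezh2 -/- 1 of 3 tested windows fell. The window before the start of Sycp1 read 31.4% in Ezh2 -/- (18.6 to 48.0%, 35 reads) and 74.1% in WT, a difference of -42.7 points (adjusted p = 5.29e-05, Fisher's exact test), where 0.854% of 8552 windows fell and 0.269% rose. As a mean over CpGs the difference was -19.5 points, which ends the call, and its 7 CpGs ran from 0 to 100.0% at few reads each. Among the windows at 50 to 100% in WT, which this one belongs to, 51.3% of 76 fell in Ezh2 -/-.

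At Dazl none of 53 reads was methylated in Ezh2 -/-, with a Wilson upper limit of 6.76% and a limit of 5.66% by the rule of 3 counts, against 14.2% in WT. The difference of -14.2 points had an adjusted p of 0.0150 (Fisher's exact test) and missed the size threshold. Over the CpGs with reads in both libraries it was -6.03 points (adjusted p = 0.336, Fisher's exact test). The reads of Ezh2 -/- all lay more than 250 bases after the start, where WT read 10.2%. The mean over CpGs gave -24.2 points, which passes the call. Inside CCGG the same Dazl window read 68.2% of 22 reads in Ezh2 -/- and 45.2% in WT, too few reads to test. Ddx4 read 11.1% in Ezh2 -/- and 17.8% in WT (adjusted p = 0.817, Fisher's exact test).

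Set directly against the Polycomb mutants, Fbxl10 T/T was called higher outside CCGG in 9 of 10 tests. These are not 10 separate windows, since those of Dazl and Ddx4 were tested against each mutant. The comparison was added after the data were seen. Against Ring1B -/- Fbxl10 T/T was higher by 52.7 points at Dazl and 48.0 points at Ddx4, both called (adjusted p = 1.79e-12 and 4.31e-12, Fisher's exact test), where 20.9% of all windows were called higher. Against Eed -/- it was higher by 70.4 points at Dazl, 59.7 points at Ddx4, 40.1 points at Sycp3 and 38.5 points at Sycp1 after the start, all called, where 22.3% of all windows were, and by 12.0 points at Sycp1 before the start, which was not called (adjusted p = 0.194, Fisher's exact test). Against Ezh2 -/- it was higher by 78.3 points at Dazl, 61.9 points at Ddx4 and 47.3 points at Sycp1 before the start, all called, where 21.7% of all windows were. These shares are not matched on level. Among windows at 10 to 50% in the mutant, 287 of 717 were called higher against Ring1B -/-. In the same class the share was 39.6% against Eed -/- and 53.4% against Ezh2 -/-. The class held all tested windows but Dazl in Eed -/- and Ezh2 -/- and Sycp1 before the start in Eed -/-. Inside CCGG only the Dazl window could be tested. It was 25.7 points higher in Fbxl10 T/T than in Ring1B -/- and called (adjusted p = 0.0129, Fisher's exact test), where 13.1% of all windows were. Against Eed -/- it was not called, with 74.2% in Fbxl10 T/T and 71.4% in Eed -/- (+2.79 points, adjusted p = 0.791, Fisher's exact test), where 15.0% of all windows were called higher. The comparisons share the Fbxl10 T/T library, and the mutants differ from it in depth and culture description.

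The 5 genes were also set beside 63 other germline genes, a list that was chosen with earlier results of these data known. Of these, 16 had a promoter that could be placed on mm9, and 12, with 15 promoters, had at least 3 CpGs outside CCGG and 30 reads in Fbxl10 T/T and WT. In Fbxl10 T/T 8 of the 15 promoters rose and 1 fell, where 14.3% of 7619 promoters of the genome rose and 0.315% fell (Fisher's exact test, adjusted over all promoters). Hormad1, which rose, and Syce2, which did not, are each counted as a pair of overlapping promoters with the same CpGs and reads. The median difference was +20.05 points over the 15 promoters and 0 over all promoters. Of all promoters at 10 to 50% in WT 48.9% rose and 1.71% fell. In the list, 3 of 3 promoters of that class rose. Below 10% in WT 3 of 9 rose, among them Ybx2 at each of its starts, and at 50% or more 2 of 3, the Hormad1 pair. A share of all promoters was not computed for these other classes, so the counts there cannot be set against the genome. Of the 5 genes described here, Ddx4 and Mael rose over the 300-base promoter, by 55.6 and 49.5 points, Sycp1 did not (+4.57 points, adjusted p = 0.435, Fisher's exact test), and Dazl and Sycp3 had too few covered bases.

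The largest rise of the list was that of Smc1b, a meiotic cohesin subunit, with 75.8% in Fbxl10 T/T (153 reads) and 9.90% in WT (384 reads), +65.9 points (adjusted p = 1.44e-49, Fisher's exact test). Ybx2, which encodes an mRNA-binding protein of germ cells, was nearly unmethylated in WT, and its promoter at one start read 55.2% in Fbxl10 T/T and 0.651% in WT. At its other start the Fbxl10 T/T library read 20.6% and WT 0.548%. Boll, a relative of Dazl, read 77.0% in Fbxl10 T/T and 24.2% in WT. Hormad2 and Hormad1, which encode proteins of the meiotic chromosome axis, were both higher. Hormad2 read 77.5% in Fbxl10 T/T and 46.1% in WT. Hormad1 read 75.5% in Fbxl10 T/T and 54.9% in WT, a value that stands for a pair of overlapping promoters with the same CpGs. Sohlh2, a transcription factor of early germ cells, read 63.5% in Fbxl10 T/T and 39.2% in WT.

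The promoter of Asz1, a gene of the piRNA pathway, was the one that fell, with 61.0% of 41 reads in Fbxl10 T/T and 88.3% of 60 reads in WT (-27.4 points, adjusted p = 0.00848, Fisher's exact test). Tdrkh read 15.7% in Fbxl10 T/T and 9.74% in WT and was not called (adjusted p = 0.367, Fisher's exact test). The promoters of Mei4, Tdrd5, Syce2 and Ddx25 were below 5% in both libraries and not called. A germline gene promoter was therefore not always higher in Fbxl10 T/T. In Ring1B -/-, Eed -/- and Ezh2 -/- no promoter of the list was called, of 1, 6 and 3 tested. Over all promoters, the share called higher was 0.729% for Ring1B -/-, 0.388% for Eed -/- and 0.127% for Ezh2 -/-, and the share called lower was 0.324% for Ring1B -/-, 0.271% for Eed -/- and 0.212% for Ezh2 -/-.

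**Figure D4:**
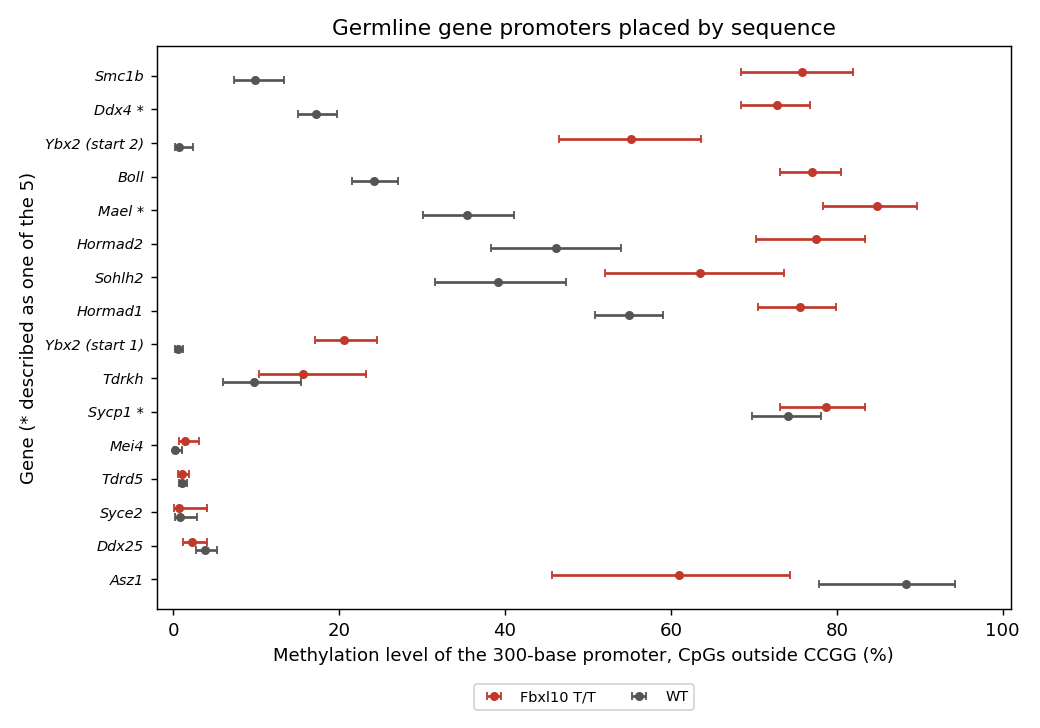
Methylation level (%, x axis) of CpGs outside CCGG in 300-base germline gene promoters in Fbxl10 T/T (red) and WT (grey), with 95% Wilson intervals, ordered by the difference from the largest rise at the top; stars mark Ddx4, Mael and Sycp1. Smc1b, Ddx4, Ybx2, Boll and Mael show the widest gaps, Asz1 is the one that is lower in Fbxl10 T/T past the threshold (61.0% against 88.3%), and Mei4, Tdrd5, Syce2 and Ddx25 lie near 0 in both.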

How the data were processed

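RRBS tables of 5 mouse ES cell libraries were used, 1 for each genotype label. The submitters' processing notes name BSMAP 2.74 and the build mm9; trimming, duplicate removal and depth filters are not given in the sources used here, and duplicate fragments would make the reads less independent than the tests assume. The deposited counts are raw reads per cytosine, showing C or showing C or T, with both strands summed at CpGs, per the file headers. Deposited beside them are expected counts, which are these reads scaled by the authors for variants seen on the opposite strand, and the deposited fraction is the reads showing C over the expected counts.

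Levels here are percentages of raw reads in which C remains, at CpGs on the autosomes and X with at least 1 read, summed over 1-kb windows, with CpGs inside and outside CCGG apart. Two-sided Fisher's exact tests (numba 0.67.0) compared 2 libraries over all windows, promoters or single CpGs of the genome, with Benjamini-Hochberg adjustment over each whole table. Promoter sequences of 27025 genes were RefSeq's (GRCm38.p6); 9744 of 32851 were placed on mm9, at 1 place and with at least 40 covered bases without mismatch, and Dazl and Sycp3 by a relaxed minimum of 10. No coordinates were moved between builds. On simulated reads at the real depths, the test called 98.0% of simulated 30-point rises for Fbxl10 T/T and 90.0% for Ring1B -/-. It called 94.0% for Eed -/- and 93.0% for Ezh2 -/-, and no unchanged window. These shares were not split by WT level, so they do not give the power at the levels of the germline windows. False calls from reads shared by CpGs, duplicate fragments or differences between libraries cannot be judged from this simulation. All members, every window with reads, the single CpGs with the 2 largest rises and falls per region and the called genes of the germline list are named or counted by rule. The members and lists were chosen with earlier results of these data known. The alternatives tried are in the closing section.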

Additional observations from a re-analysis of the deposited data

Results flagged for a closer look

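Cytosines outside CpG in the 5 regions, which no comparison above uses, showed C in a larger share of reads in the mutant libraries than in WT, with intervals above that of WT in 3 of them (Fbxl10 T/T, Ring1B -/- and Eed -/-). The share was 1.57% in Fbxl10 T/T (95% Wilson interval 1.30 to 1.90%, 102 of 6488 reads), 3.63% in Ring1B -/- (2.41 to 5.44%, 22 of 606 reads), 2.18% in Eed -/- (1.35 to 3.52%, 16 of 733 reads), 1.86% in Ezh2 -/- (1.01 to 3.39%, 10 of 537 reads) and 1.09% in WT (0.915 to 1.29%, 128 of 11780 reads). Over the whole libraries the Fbxl10 T/T share was 0.687%, that of Ring1B -/- 2.62%, that of Eed -/- 2.83%, that of Ezh2 -/- 2.10% and that of WT 1.02%. The Fbxl10 T/T regions thus read above WT while the whole Fbxl10 T/T library read below it. Methylated and unconverted cytosines cannot be told apart here, and the shares are small beside the CpG differences of 32.8 to 64.1 points at these genes.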

How the results depend on the processing

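No paired analysis was possible because each genotype has 1 library, and for the same reason no replicate could be left out. The 5 windows outside CCGG that rose in Fbxl10 T/T kept their call under all 11 alternatives that could be matched to a window. These were shared CpGs, minimums of 5 and 10 reads, 3 CpGs, means over CpGs, capped depth, the authors' expected counts, thresholds of 10 and 30 points, median subtraction and CCGG CpGs included. Windows shifted by 500 bases gave 7 calls. The differences ran from 54.1 to 65.5 points at Dazl, 52.1 to 55.6 at Ddx4, 38.6 to 53.0 at Mael, 36.3 to 41.3 at Sycp3 and 30.8 to 32.9 at Sycp1. Inside CCGG, Mael lost its call at 10 reads (+18.3 points). Single CpGs called higher in Fbxl10 T/T numbered 61 of 119 tested, 68 of 136 at 5 reads and 39 of 72 at 20 reads, where fewer were tested.

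Depth limited the shallow mutants. The call inside CCGG at Dazl in Eed -/- went to 0 at minimums of 5 and 10 reads (1 and 0 windows tested) and under median subtraction, the call at Sycp1 in Ezh2 -/- went to 0 at 5 and 10 reads (0 tested) and became 2 at a threshold of 10 points, with Dazl. The windows called higher in Fbxl10 T/T than in Ring1B -/-, Eed -/- or Ezh2 -/- went to 0 at 5 reads, with 0, 1 and 0 windows left to test.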

Other observations

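The motif CpGs of Ddx4, Sycp1 and Mael led to the same reading over other promoters, added after the data were seen and without a test. In 29 promoters with a measured CpG inside CACGTG, the other CpGs outside CCGG stood at least 20 points above WT in Fbxl10 T/T. There the E-box CpG had a median level of 47.2% in Fbxl10 T/T and 2.42% in WT, and the other CpGs had a median of 61.5% in Fbxl10 T/T and 4.24% in WT. The E-box CpG was below the others in 22 of the 29 promoters in Fbxl10 T/T, with a median difference of -11.3 points. In the promoters without such a rise it was lower in 171 of 263, at levels near 0. For TCCCGC, the motif CpG of 229 such promoters had a median of 52.2% in Fbxl10 T/T and the other CpGs 57.2%, with the motif CpG lower in 142, and it was lower in 810 of the 1322 promoters without such a rise. These promoters were picked by the rise of their other CpGs, which favours higher values there, so the gap is a description only.

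The Ybx2 promoter at the first of its starts read 7.94% of 63 reads in Eed -/- and 0.548% of 1094 reads in WT. The adjusted p was 0.00339 (Fisher's exact test) and the difference of +7.39 points was below the size threshold.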
